A study of Homo sapiens with 6 samples.

Results

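The NRF2 pathway, the enzymes that remove oxidants and the enzymes that make NADPH were followed through a stepwise transformation of human fibroblasts. The 35 members were chosen by name, as antioxidant, glutathione and pentose phosphate genes, by a rule that used no measured value but with earlier results of these data known, and 33 of them were among the 18417 genes tested. PRDX5 and AKR1B1 were not analysed here. Total RNA was hybridised to Affymetrix Gene ST arrays, 2 arrays for each of 3 cell lines, and each value below is a log2 signal of the probe set with a single gene name and the highest mean.

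BJ cells are primary human foreskin fibroblasts. BJEL cells are BJ cells that received the telomerase gene hTERT together with the SV40 early region with large T and small t antigen, and they were kept in G-418 and hygromycin. BJELM cells were made from BJEL cells with a pBabe-MYC-ER retrovirus and were kept in G-418, hygromycin, puromycin and, without interruption, 4-hydroxytamoxifen. The drugs cannot be told apart from the introduced genes, since each was given only to lines that carry them, and the sources used here do not say whether a derived line is a clone. The 2 arrays of a line are labelled biological replicates with nothing said of separate cultures, so p-values measure only the spread between these arrays, which may be technical. The number of arrays limits the precision.

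NRF2, encoded by NFE2L2, is a transcription factor that KEAP1 holds in the cytoplasm and sends to the proteasome. Electrophiles and peroxides modify KEAP1, and the freed NRF2 enters the nucleus with a small MAF partner and binds antioxidant response elements near genes for glutathione synthesis, thioredoxin recycling and quinone reduction. Both the glutathione and the thioredoxin branch pass electrons from NADPH to peroxides, so the pentose phosphate pathway, malic enzyme and isocitrate dehydrogenase stand upstream of them. In fibroblasts these systems are active at rest and respond to growth conditions and to oxidants in the medium.

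The labels were set against the introduced genes and against cell type markers. TERT rose by 3.02 in BJEL (adjusted p, here q, = 0.000156) with means of 7.82, 10.84 and 10.81 in BJ, BJEL and BJELM. MYC went against the label BJELM, with 10.22 and 10.12 on the BJEL arrays but 9.57 and 8.90 on the BJELM-labelled arrays, 0.93 ± 0.21 (SE) lower (q = 0.0444), so every direction below that involves that line is a direction between the arrays labelled so. Whether that probe set reads the introduced MYC-ER as well as the MYC of the cell was not tested. The mean signal of 10 fibroblast markers on an array ranged from 11.66 to 11.87 in BJ, from 10.39 to 10.41 in BJEL and from 10.01 to 10.47 on the BJELM-labelled arrays, and against BJ 5 of the 10 markers fell at least 2-fold in BJEL and 8 on the BJELM-labelled arrays. The 8 endothelial markers averaged between 5.35 and 5.53 on every array. Fewer cells of a type and less RNA per cell cannot be told apart in bulk RNA, and the part of this loss of fibroblast markers in the differences below was not tested.

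A gene was called when q, its Benjamini-Hochberg adjusted p in the limma fit across all genes, was under 0.05 and the change was at least 2-fold, that is, at least 1 on the log2 scale. From BJ to BJEL 0 of the 33 members were called, against 5.18% of all genes (2.89% higher, 2.29% lower). Of the members 8 had an unadjusted p under 0.05, as did 5638 of the 18417 genes. A plain t-test with unequal variances, not the modified test of the study's methods, gave 0 members. On the BJELM-labelled arrays, 5 of 33 members (15.2%) were called against BJ, where 8.79% of all genes were, and 2 of 33 (6.06%) against BJEL, where 2.68% of all genes were. The 5 members were GCLC and SOD2, which were higher, as 4.09% of all genes were, and HMOX1, GPX7 and GPX8, which were lower, as 4.7% were. The 2 were GCLC and SOD2 again, where 0.923% of all genes were called higher and 1.76% lower. Both comparisons share the BJELM-labelled arrays. Of the 33 members, 29 had a mean signal at or above that of the median gene. The 4 below it were SOD3, GPX3, AKR1C1 and AKR1C3. The shares of all genes, here and below, were not matched to the members by signal. Without BJ replicate 1 the 5 became 3, since HMOX1 and GPX7 were lost, and without BJELM replicate 1 the 2 calls against BJEL were GCLC and GPX7. The median difference of the members was -0.12 in BJEL and -0.19 on the BJELM-labelled arrays, both against BJ, where the medians of all genes were -0.02 and 0.01.

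Many members passed the adjusted p while changing by less than 2-fold. Here and below, unless stated, passing refers to the fit without the replicate number as a block. More members passed with that block. With no fold minimum, 4 members passed from BJ to BJEL, where 17.5% of all genes did (10.4% higher, 7.13% lower), and all 4 were lower. Against BJ, 15 members (45.5%) passed on the BJELM-labelled arrays, where 28.2% of all genes did, 5 higher (all genes 15.1%) and 10 lower (all genes 13.1%). Against BJEL 8 members (24.2%) passed, where 10.8% of all genes did, 5 higher (all genes 4.53%) and 3 lower (all genes 6.28%). These counts changed when 1 array was left out. Such a fit has fewer degrees of freedom, so a lower count need not mean dependence on the array left out. Between BJEL and the BJELM-labelled arrays the count fell even without a BJ array, which is in neither line. From BJ to BJEL the 4 became 1 without BJ replicate 1, 2 without BJ replicate 2, 1 without BJEL replicate 1 and 1 without BJEL replicate 2. Between BJ and the BJELM-labelled arrays the 15 became 6 without BJ replicate 1 and 9 without BJ replicate 2, and 10 without BJELM replicate 2. Between BJEL and the BJELM-labelled arrays the 8 became 4 without either BJ replicate 1 or BJ replicate 2, 5 without BJEL replicate 1, 3 without BJEL replicate 2 and 5 without BJELM replicate 2. In all, 15 members passed in at least 1 comparison, 18 in none, and SRXN1 and GPX8 in all 3. The arrays of the lines compared did not overlap for 20 members between BJ and BJEL, 24 between BJ and the BJELM-labelled arrays and 21 between BJEL and the BJELM-labelled arrays (60.6%, 72.7% and 63.6%), where all genes gave 61.2%, 60.5% and 52.8%, so a gap between 2 and 2 arrays is common here.

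**Figure D1:**
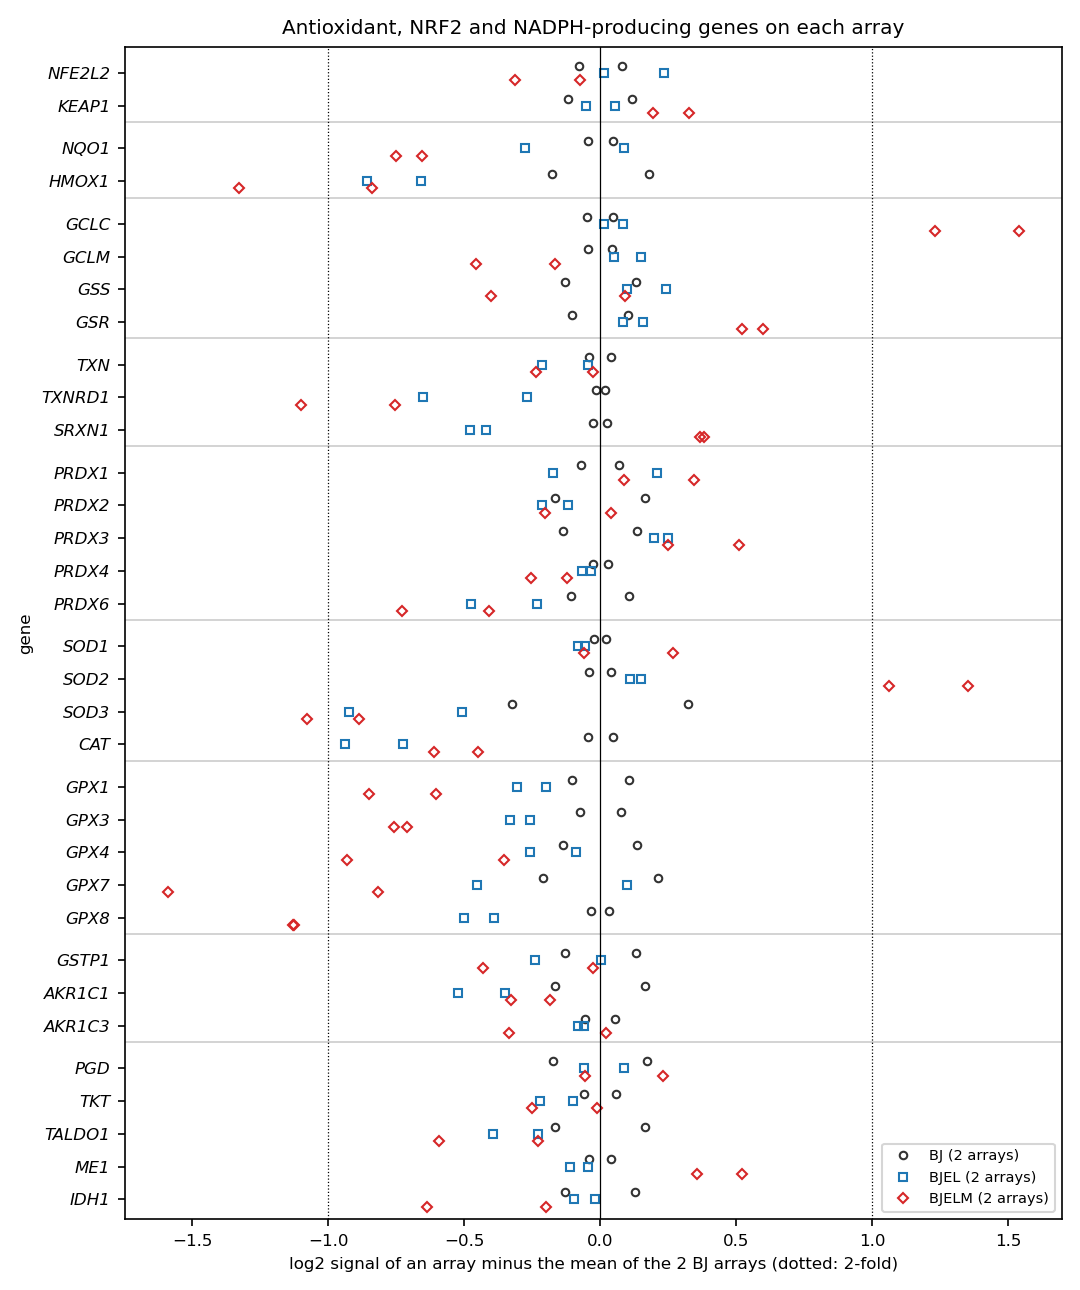
Each point is 1 array, placed by its log2 signal minus the mean of the 2 BJ arrays, for the 33 measured members grouped by role (grey lines). Dotted lines mark 2-fold. GCLC and SOD2 on the BJELM-labelled arrays stand beyond the right dotted line, with 1.39 and 1.21 as their means, and the 5 member glutathione peroxidases lie to the left on both of these arrays.

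NRF2 and its inhibitor passed the adjusted p in 0 of 3 comparisons in the fit without the replicate number as a block, and each passed in 1 with it. NFE2L2 had 10.62 and 10.46 in BJ, 10.78 and 10.55 in BJEL, and 10.47 and 10.23 on the BJELM-labelled arrays. The BJELM arrays were the lower ones but overlapped those of BJ. Its difference from BJ was 0.12 in BJEL (95% interval -0.19 to 0.44) and -0.19 on the BJELM-labelled arrays (-0.51 to 0.12). KEAP1 had 8.99 and 8.75 in BJ, 8.92 and 8.82 in BJEL, and 9.19 and 9.06 on the BJELM-labelled arrays. Both BJELM arrays of KEAP1 were above the other 4, by 0.26 on average against BJ (-0.02 to 0.54, q = 0.158). The array reads RNA, and NRF2 protein is known to be set mainly by its breakdown, which was not measured here.

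NQO1 and HMOX1, both widely used readouts of NRF2, stood lower on the BJELM-labelled arrays than in BJ. NQO1, which reduces quinones without a semiquinone intermediate, had 12.29 and 12.20 in BJ, 11.97 and 12.34 in BJEL, and 11.59 and 11.50 on the BJELM-labelled arrays. The BJELM arrays were below all others, while those of BJ and BJEL overlapped. Against BJ the difference was -0.70 ± 0.14 (q = 0.0112) and against BJEL -0.61 ± 0.14 (q = 0.0416), both under 2-fold. The adjusted p passed in 4 of the 6 fits that left out 1 array against BJ, and in 1 of 6 against BJEL.

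HMOX1, the heme-degrading enzyme on chromosome 22, was the only one of this pair to be called. Its signal was 9.47 and 9.11 in BJ, 8.63 and 8.43 in BJEL, and 8.45 and 7.96 on the BJELM-labelled arrays. The BJ arrays were the highest, and those of the derived lines overlapped. It fell 2.12-fold, by 1.08 ± 0.20 on the log2 scale, between BJ and the BJELM-labelled arrays (q = 0.00911). In BJEL the difference from BJ was -0.76 ± 0.20 (q = 0.0477, and 0.0648 with arrays centred on their medians), under 2-fold, and passed in 2 of the 6 fits that left out 1 array. The call was lost without BJ replicate 1 (-0.91, q = 0.0549) and, by its size, without BJELM replicate 2 (-0.84, q = 0.028).

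The promoters of the members were searched for the core of the antioxidant response element, spelled TGACNNNGC and read on both strands. RefSeq (GRCh38.p14) windows of 250 bases before to 50 bases after the gene's start were found for 27 of the 33 measured members, and 5 of them (18.5%) held the core: GCLM, TXNRD1, GSTP1, PGD and ME1. Of all 27305 promoters 13.6% held it, and of the 14239 promoters of measured genes 14.6%. The MYC E-box CACGTG was in 3 of 27 (11.1%), PRDX3, PRDX4 and GPX1, in 7.43% of all promoters and in 8.88% of those of measured genes. GSR, HMOX1, GSS, PRDX1, PRDX6 and SOD1 were not in the table. A match is a description of letters and not a binding site, and no promoter of these members held both motifs. Sequence beyond these windows was not searched, so genes without a match here, NQO1 and GCLC among them, may hold the core elsewhere.

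Below are 160-base stretches, 150 bases before to 10 bases after the start, of 4 of these promoters, shown because the core, the letters that NRF2 is known to recognise, lies within this stretch. In PGD it began at position -201 from the start, outside it. Each is written 5′ to 3′ on the strand of its gene, and capitals mark the core in either orientation.
GCLM (chr1:93909421-93909580, minus strand): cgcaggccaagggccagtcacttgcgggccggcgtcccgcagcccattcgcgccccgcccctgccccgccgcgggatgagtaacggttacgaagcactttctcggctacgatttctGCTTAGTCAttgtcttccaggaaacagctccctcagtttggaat
TXNRD1 (chr12:104215629-104215788, plus strand): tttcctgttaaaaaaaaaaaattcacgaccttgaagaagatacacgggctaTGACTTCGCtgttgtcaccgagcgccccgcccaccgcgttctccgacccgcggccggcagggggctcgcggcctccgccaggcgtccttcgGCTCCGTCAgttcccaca
GSTP1 (chr11:67583662-67583821, plus strand): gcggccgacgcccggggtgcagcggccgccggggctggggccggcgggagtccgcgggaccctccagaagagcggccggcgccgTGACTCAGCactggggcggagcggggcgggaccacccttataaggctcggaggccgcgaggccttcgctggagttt
ME1 (chr6:83431042-83431201, minus strand): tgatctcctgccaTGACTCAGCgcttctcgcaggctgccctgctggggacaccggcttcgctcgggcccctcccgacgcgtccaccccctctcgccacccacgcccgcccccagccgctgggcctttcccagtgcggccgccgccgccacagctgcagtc
In GCLM the core began 34 bases before the start, on the opposite strand. TXNRD1 had a pair of matches, 99 and 8 bases before the start. GSTP1 and ME1 carried the same 9 letters, TGACTCAGC, 66 and 137 bases before their starts, and ME1 held a second match, on the opposite strand, from the base at position 11 after the start, just beyond the stretch. On the BJELM-labelled arrays, against BJ, the differences of these genes were -0.31 for GCLM, -0.93 for TXNRD1, -0.23 for GSTP1 and 0.44 for ME1, of which those of TXNRD1 and ME1 passed the adjusted p.

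Glutamate-cysteine ligase catalyses the rate-limiting step of glutathione synthesis. Its catalytic subunit rose on the BJELM-labelled arrays, and its modifier subunit did not pass in the fit without the replicate number as a block. GCLC, the catalytic subunit, encoded on chromosome 6, had 7.56 and 7.47 in BJ, 7.60 and 7.53 in BJEL, and 8.75 and 9.06 on the BJELM-labelled arrays. Both BJELM arrays lay more than 1 unit above the other 4, and the BJ and BJEL arrays overlapped. It rose 2.61-fold against BJ (1.39 ± 0.12, q = 0.000754) and 2.53-fold against BJEL (1.34 ± 0.12, q = 0.00371), and was called in all 6 fits that left out 1 array, in both comparisons. From BJ to BJEL the difference was 0.05 ± 0.12 (95% interval -0.25 to 0.35).

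GCLM, the modifier subunit that makes the ligase more efficient, had 8.20 and 8.29 in BJ, 8.39 and 8.29 in BJEL, and 7.79 and 8.08 on the BJELM-labelled arrays. The BJELM-labelled arrays were the lowest, at -0.31 ± 0.12 against BJ (q = 0.113) and -0.41 ± 0.12 against BJEL (q = 0.0884), and neither passed. With the replicate number as a block the difference of GCLM from BJEL passed (q = 0.0309). GSR, which regenerates reduced glutathione with NADPH, stood higher there by 0.56 ± 0.10 against BJ (q = 0.00905) and by 0.44 ± 0.10 against BJEL (q = 0.0466), both under 2-fold. The second of these was lost in all 6 fits that left out 1 array (q from 0.0594 to 0.183), with arrays centred on their medians (q = 0.0872) and with an intensity trend and robust prior (q = 0.0635), and the first was lost without BJ replicate 2 (q = 0.0501). GSS, glutathione synthetase, differed by between -0.33 and 0.17 in the 3 comparisons and passed in 0 of them.

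The members of the thioredoxin branch differed in sign. TXNRD1, the cytosolic reductase that recharges thioredoxin with NADPH, had 11.16 and 11.13 in BJ, 10.49 and 10.87 in BJEL, and 10.04 and 10.39 on the BJELM-labelled arrays. The groups did not overlap, and the order of the means was BJ, BJEL, BJELM. Without the replicate number as a block, only the difference between the ends passed the adjusted p, at -0.93 ± 0.17 (q = 0.0087). It was called without BJELM replicate 2 (-1.10) and lost the adjusted p without BJ replicate 1 (-0.91). With that block the differences from BJ to BJEL (-0.46, q = 0.0223) and from BJEL to the BJELM-labelled arrays (-0.47, q = 0.0264) passed too. TXN, thioredoxin itself, stayed between 10.71 and 10.98 on the 6 arrays and passed in no comparison.

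SRXN1, sulfiredoxin, which restores overoxidised peroxiredoxins, had a signal of 9.72 and 9.67 in BJ, 9.27 and 9.22 in BJEL, and 10.06 and 10.07 on the BJELM-labelled arrays. It was lowest in BJEL and highest on the BJELM-labelled arrays, with no overlap and an SD of at most 0.040 within a line. The differences were -0.45 ± 0.08 (q = 0.0143) from BJ to BJEL, 0.82 ± 0.08 (q = 0.00425) from BJEL to the BJELM-labelled arrays, and 0.37 ± 0.08 (q = 0.0167) between the ends, all under 2-fold. The middle one passed in all 6 fits that left out 1 array, the other two in 2 of 6 each.

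**Figure D2:**
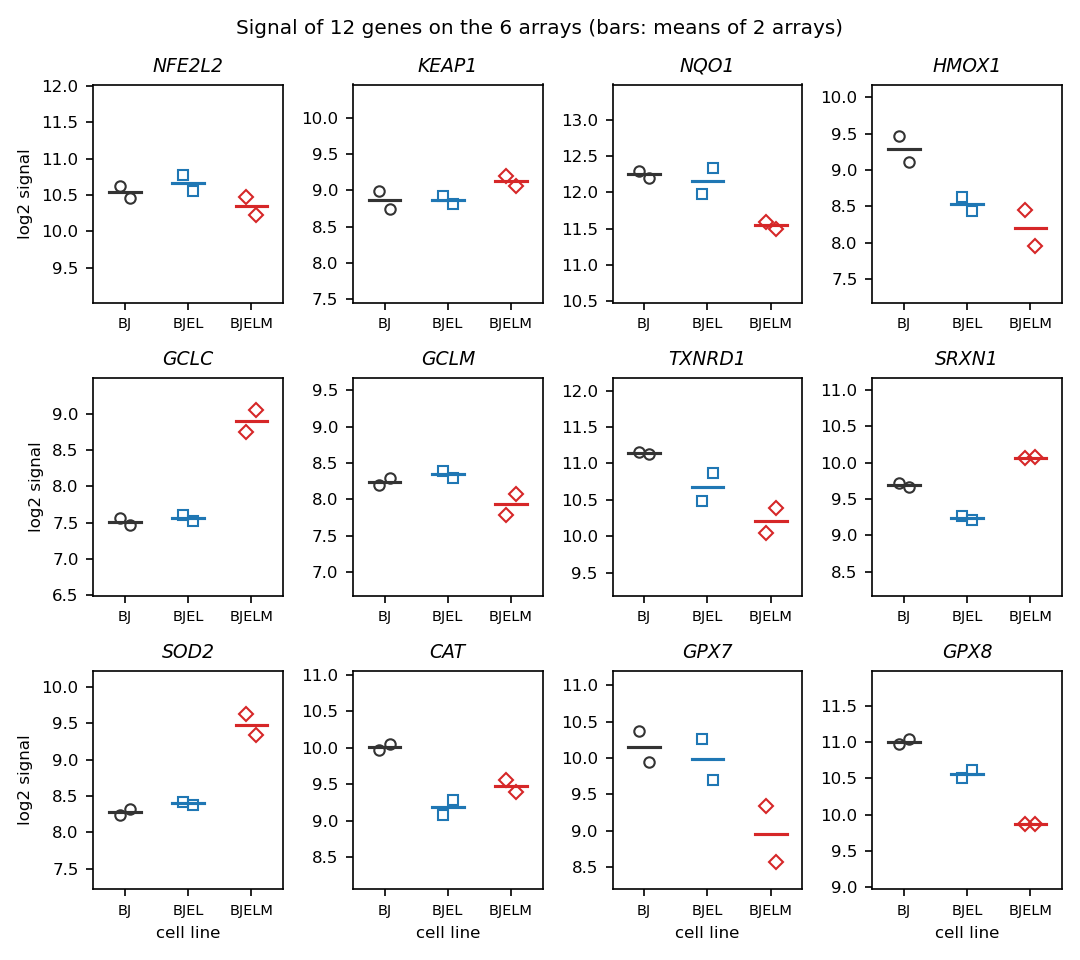
Log2 signal of 12 members on the 6 arrays, with 1 point for each array and a bar at the mean of each line; every panel spans the same range of log2 units, centred on the gene's own mean. GCLC and SOD2 step up on the BJELM-labelled arrays (means 8.90 and 9.48) with BJ and BJEL side by side, GPX8 steps down from line to line, and SRXN1 and CAT are lowest in BJEL.

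Of 5 measured peroxiredoxins, abundant thiol peroxidases fed by thioredoxin, 0 passed from BJ to BJEL, 1 against BJ on the BJELM-labelled arrays and 0 against BJEL, where 17.5%, 28.2% and 10.8% of all genes did. The 1 was PRDX6, which uses glutathione, with 12.47 and 12.26 in BJ, 12.13 and 11.89 in BJEL and 11.95 and 11.64 on the BJELM-labelled arrays. Its BJ arrays were the highest and the derived lines overlapped, with a difference between the ends of -0.57 ± 0.15 (q = 0.0351, passing in 3 of 6 fits that left out 1 array). PRDX3, the mitochondrial member, had the largest positive difference, 0.38 ± 0.13 against BJ on the BJELM-labelled arrays (q = 0.0883).

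Among the enzymes that handle superoxide and hydrogen peroxide, the mitochondrial, the extracellular and the peroxisomal one differed between the lines, and the cytosolic one did not pass. SOD2, the manganese superoxide dismutase of mitochondria, had 8.24 and 8.32 in BJ, 8.42 and 8.38 in BJEL, and 9.63 and 9.34 on the BJELM-labelled arrays. The BJELM-labelled arrays stood far above the rest, and BJ and BJEL lay close together without overlap. It rose 2.31-fold against BJ (1.21 ± 0.12, q = 0.001) and 2.11-fold against BJEL (1.08 ± 0.12, q = 0.00556). The call against BJ held in all 6 fits that left out 1 array, and the one against BJEL fell below 2-fold without BJELM replicate 1 (0.93, q = 0.0133).

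SOD3, the secreted enzyme bound to the matrix, had 7.53 and 6.88 in BJ, 6.69 and 6.28 in BJEL, and 6.32 and 6.13 on the BJELM-labelled arrays. The BJ arrays were the highest and far apart, with the largest SD of a member in that line (0.458). Against BJ the difference was -0.98 ± 0.24 on the BJELM-labelled arrays (q = 0.0257), just under 2-fold. It crossed 2-fold with arrays centred on their medians (-1.01), with quantile normalization again (-1.01) and without BJ replicate 2 (-1.31, q = 0.0126), and without BJ replicate 2 the difference in BJEL was called as well (-1.04, q = 0.038). It passed the adjusted p in 3 of the 6 fits that left out 1 array and was lost without BJ replicate 1 (-0.66, q = 0.0952), BJELM replicate 1 (-1.08, q = 0.0563) and BJELM replicate 2 (-0.89, q = 0.102). SOD1, the cytosolic copper-zinc enzyme, differed by between -0.07 and 0.17.

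CAT, the peroxisomal catalase, had 9.97 and 10.06 in BJ, 9.07 and 9.29 in BJEL, and 9.56 and 9.40 on the BJELM-labelled arrays. BJ was highest and BJEL lowest, with no overlap. From BJ to BJEL the difference was -0.83 ± 0.11 (q = 0.00541), which passed in all 6 fits that left out 1 array and was the only one of the 4 in BJEL to do so. On the BJELM-labelled arrays it was -0.53 ± 0.11 against BJ (q = 0.0154, passing in 3 of 6) and 0.30 ± 0.11 against BJEL (q = 0.16).

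The 5 glutathione peroxidases among the members had negative differences in the 3 comparisons, and this group held 2 of the 3 members that fell at least 2-fold. The median difference of the 5 was -0.25 from BJ to BJEL, -0.73 between BJ and the BJELM-labelled arrays, and -0.47 between BJEL and those arrays. The adjusted p passed for 1, 4 and 2 of them, where 17.5%, 28.2% and 10.8% of all genes passed. The 3 further measured glutathione peroxidases, GPX2, GPX5 and GPX6, had a median of -0.06 from BJ to BJEL, where all 3 differences were negative. On the BJELM-labelled arrays their medians were 0.07 against BJ and 0.16 against BJEL, where 2 and 3 of them had positive differences. They passed in no comparison. For GPX7 the sign in BJEL turned without BJ replicate 1 (0.03) and without BJEL replicate 2 (0.10).

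GPX8, a membrane peroxidase of the endoplasmic reticulum encoded on chromosome 5, had 10.97 and 11.03 in BJ, 10.50 and 10.61 in BJEL, and 9.87 and 9.88 on the BJELM-labelled arrays. Each line was below the one before it, with no overlap. It fell 2.18-fold between BJ and the BJELM-labelled arrays, by 1.13 ± 0.09 on the log2 scale (q = 0.000509), in all 6 fits that left out 1 array. The differences from BJ to BJEL (-0.45 ± 0.09, q = 0.018) and from BJEL to the BJELM-labelled arrays (-0.68 ± 0.09, q = 0.00797) also passed, under 2-fold, and held in 2 and 5 of the 6 fits.

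GPX7, its close relative in the same compartment, which works with protein disulfide isomerase, had 10.37 and 9.95 in BJ, 10.26 and 9.70 in BJEL, and 9.34 and 8.57 on the BJELM-labelled arrays. The BJELM-labelled arrays were the lowest and BJ and BJEL overlapped, and the arrays of each line were far apart, with the largest SDs of a member in BJEL (0.391) and on the BJELM-labelled arrays (0.547). It fell against BJ (-1.20 ± 0.31, 2.30-fold, q = 0.0307), a call that did not survive without BJ replicate 1 (-0.99, q = 0.157), without BJ replicate 2 (-1.41, q = 0.0564) and without BJELM replicate 2 (-0.82, q = 0.101). Against BJEL the difference of -1.03 ± 0.31 did not pass (q = 0.0935), and it was called without BJELM replicate 1 (-1.41, q = 0.0432).

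The other 3 peroxidases stood lower on the BJELM-labelled arrays by less than 2-fold. GPX1, the main cytosolic enzyme, had 11.20 and 10.99 in BJ, 10.89 and 10.79 in BJEL, and 10.49 and 10.24 on the BJELM-labelled arrays, with no overlap, and its difference between the ends was -0.73 ± 0.12 (q = 0.00722). A second GPX1 probe set kept the order with a smaller spread, at means of 9.99, 9.81 and 9.70. GPX3, a secreted enzyme, had 6.94 and 7.09 in BJ, 6.76 and 6.68 in BJEL, and 6.26 and 6.31 on the BJELM-labelled arrays, again without overlap, and stood at -0.73 ± 0.09 against BJ (q = 0.0024) and at -0.44 ± 0.09 against BJEL (q = 0.0354). The differences of GPX1 and GPX3 from BJ passed in all 6 fits that left out 1 array, and that of GPX3 from BJEL in 0 of 6. GPX4, which reduces lipid hydroperoxides in membranes and restrains ferroptosis, was at -0.64 ± 0.20 against BJ (q = 0.0641) and did not pass. It passed with only genes at or above the median level (q = 0.0423), with only genes that had a line mean of 6 or more (q = 0.0447), with an intensity trend and robust prior (q = 0.0498) and without BJELM replicate 1 (-0.93, q = 0.012), and without 1 array the difference ran from -0.93 to -0.35.

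**Figure D3:**
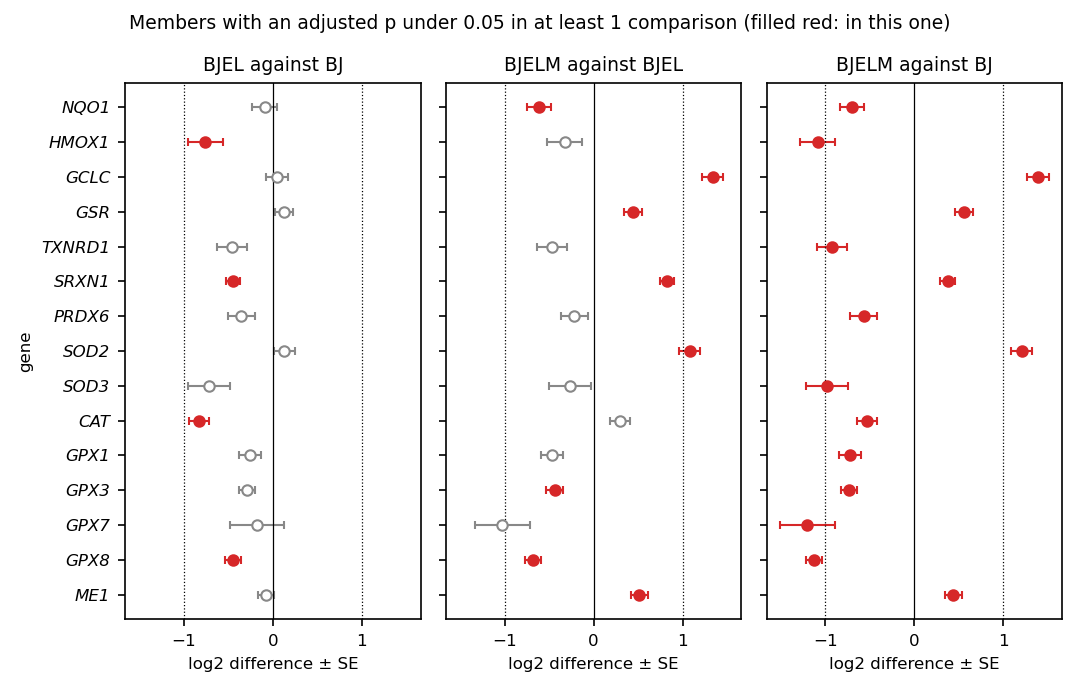
Log2 difference with its standard error for the 15 members past an adjusted p of 0.05 in at least 1 comparison, ordered by role, in 3 panels that share an axis; filled red points passed in that panel, dotted lines mark 2-fold. The left panel's 4 filled points lie left of 0, the nearest to it at about -0.45. In the right panel 10 filled points lie left of 0 and 5 right of it.

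Of the 5 NADPH-producing and pentose phosphate enzymes among the members, 0 passed the adjusted p from BJ to BJEL, and ME1 alone passed on the BJELM-labelled arrays, against BJ and against BJEL, where 28.2% and 10.8% of all genes did. ME1, the cytosolic malic enzyme, which yields NADPH from malate, had 9.81 and 9.73 in BJ, 9.66 and 9.72 in BJEL, and 10.29 and 10.12 on the BJELM-labelled arrays. The BJELM-labelled arrays were above the other 4, by 0.44 ± 0.10 against BJ (q = 0.0175) and by 0.52 ± 0.10 against BJEL (q = 0.024), under 2-fold, in 3 and 1 of the 6 fits that left out 1 array. PGD, the second NADPH-yielding step of the pentose phosphate pathway, differed by between 0.01 and 0.09, and TKT, transketolase, by between -0.16 and 0.03. TALDO1, transaldolase, stood at -0.41 ± 0.17 (q = 0.132) and IDH1, the cytosolic isocitrate dehydrogenase, at -0.42 ± 0.17 (q = 0.123) on the BJELM-labelled arrays against BJ.

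GSTP1, the pi-class glutathione transferase, and the aldo-keto reductases AKR1C1 and AKR1C3, which reduce steroids and reactive carbonyls, passed in 0 of 3 comparisons. GSTP1 lay between 12.02 and 12.58 on the 6 arrays, and all 3 lines overlapped. AKR1C1 had 6.79 and 7.12 in BJ, 6.60 and 6.43 in BJEL, and 6.77 and 6.62 on the BJELM-labelled arrays. Its BJ arrays were the highest, and its difference in BJEL was -0.44 ± 0.14 (q = 0.0844). A second AKR1C1 probe set had means of 6.16, 5.28 and 5.31, and with that probe set the difference in BJEL passed (-0.88, q = 0.0126). AKR1C genes are close copies of each other, so their probe sets may share signal. AKR1C3 stood between 4.38 and 4.76, the one member with no line mean of 6 or more.

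The rest of the pathway was read from 132 further genes in lists of partners, enzymes and oxidant producers, of which 120 were measured. Against BJ, 5 of the 120 were called higher and 6 lower in BJEL, and 6 higher and 12 lower on the BJELM-labelled arrays (9.17% and 15%). Against BJEL, 2 were called higher and 4 lower (5%). All genes gave 5.18%, 8.79% and 2.68%.

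NRF2's partners held 1 called gene of 9 measured. NFE2L3, which encodes NRF3, a relative of NRF2 that binds similar DNA elements, had 7.30 and 6.72 in BJ, 9.47 and 8.70 in BJEL, and 9.03 and 8.58 on the BJELM-labelled arrays. Both derived lines were above BJ and overlapped each other, with rises of 2.08 ± 0.31 (q = 0.00808) in BJEL and 1.79 ± 0.31 (q = 0.00786) on the BJELM-labelled arrays. It was called in BJEL in all 6 fits that left out 1 array, while NFE2L2 itself passed in 0 of 3 comparisons.

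Of 9 genes of glutathione supply and turnover, 3 rose in BJEL and 2 on the BJELM-labelled arrays, against BJ. GGCT, the cyclotransferase of the gamma-glutamyl cycle, rose by 1.05 ± 0.11 in BJEL (q = 0.00272) and by 1.54 ± 0.11 on the BJELM-labelled arrays (q = 0.000465). CHAC2, which cleaves glutathione, rose by 1.29 ± 0.33 in BJEL (q = 0.0452) and by 2.06 ± 0.33 on the BJELM-labelled arrays (q = 0.00559). LAP3, an aminopeptidase, rose by 1.40 ± 0.19 in BJEL (q = 0.00602) and fell again after BJEL (-1.07 ± 0.19 on the BJELM-labelled arrays, q = 0.0232). In BJEL the call of GGCT was lost by its size without BJ replicate 1 (0.98) and without BJEL replicate 1 (0.95). That of CHAC2 was lost without BJ replicate 1 (0.95, q = 0.211), BJ replicate 2 (1.62, q = 0.053), BJEL replicate 1 (1.48, q = 0.111) and BJEL replicate 2 (1.09, q = 0.179). The LAP3 fall was lost without BJEL replicate 1 (-0.75, q = 0.039), BJELM replicate 1 (-1.06, q = 0.0676) and BJELM replicate 2 (-1.07, q = 0.0845). SLC7A11, the cystine importer that supplies glutathione synthesis, named here after its values were seen, stood at -0.75 ± 0.17 (q = 0.0186) on the BJELM-labelled arrays against BJ, under 2-fold, where GCLC was 1.39 higher.

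Of the mu-class glutathione transferases listed, 4 were called lower on the BJELM-labelled arrays, and GSTM3, also listed, was not among them. Against BJ, 4 of 16 further transferases were called, all lower: GSTM4 by -1.99 ± 0.20 (q = 0.00118), GSTM5 by -1.72 ± 0.21 (q = 0.002), GSTM1 by -1.30 ± 0.09 (q = 0.000386) and GSTM2 by -1.21 ± 0.14 (q = 0.00161). Against BJEL GSTM4 (-1.24 ± 0.20, q = 0.0161) and GSTM5 (-1.09 ± 0.21, q = 0.025) were called. Both calls against BJEL were lost without BJEL replicate 1 (-1.32, q = 0.077 and -0.99, q = 0.143), BJEL replicate 2 (-1.16, q = 0.0847 and -1.20, q = 0.0813) and BJELM replicate 2 (-0.94, q = 0.0271 and -0.85, q = 0.0806). GSTM genes are near copies in 1 cluster, so these 4 probe sets may share signal and are not 4 separate observations. Against BJ, 4 of the 16 differences were positive on the BJELM-labelled arrays. With no fold minimum 2 passed higher and 6 lower there, where 15.1% and 13.1% of all genes did.

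Of 16 further thioredoxin, glutaredoxin, sestrin and methionine sulfoxide reductase genes, 3 were called in BJEL and 4 on the BJELM-labelled arrays, against BJ, and all of those called were lower. With no fold minimum 3 passed higher and 6 lower on the BJELM-labelled arrays against BJ, where 15.1% and 13.1% of all genes did. Of the 16 differences from BJ, 7 were positive in BJEL and 6 on the BJELM-labelled arrays. GLRX, glutaredoxin, which removes glutathione from proteins, fell in BJEL (-1.90 ± 0.21, q = 0.00307) and on the BJELM-labelled arrays (-2.60 ± 0.21, q = 0.000612). SESN1, a stress-induced sestrin, fell in the same comparisons (-1.24 ± 0.18, q = 0.00721 and -1.23 ± 0.18, q = 0.00426). MSRB3, a methionine sulfoxide reductase, fell too (-1.03 ± 0.15, q = 0.00781 and -1.66 ± 0.15, q = 0.000892). Its mitochondrial relative MSRB2 fell by 1.54 ± 0.09 on the BJELM-labelled arrays (q = 0.000265). Without BJ replicate 1 the MSRB3 call in BJEL was lost (-0.88, q = 0.0506), as without BJEL replicate 1 (-1.05, q = 0.0503).

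The list of further genes around NADPH and the pentose phosphate pathway had 19 measured, and not all of them, RPIA for one, make NADPH. Against BJ, 1 was called lower in BJEL, and 2 were called higher and 2 lower on the BJELM-labelled arrays. RPIA, the ribose 5-phosphate isomerase of the pentose phosphate pathway, rose by 1.72 ± 0.09 on the BJELM-labelled arrays against BJ (q = 0.000184) and by 1.21 ± 0.09 against BJEL (q = 0.00209). MTHFD1, a folate enzyme that yields NADPH, rose by 1.01 ± 0.09 against BJ (q = 0.000723), a rise that was below 2-fold without BJ replicate 1 (0.98), with arrays centred on their medians (0.99) and with quantile normalization again (0.96). ALDH1L2, a mitochondrial folate enzyme, fell in BJEL (-1.30 ± 0.23, q = 0.0138) and on the BJELM-labelled arrays (-1.52 ± 0.23, q = 0.00461). In BJEL its call was lost without BJ replicate 1 (-1.26, q = 0.0812), BJ replicate 2 (-1.33, q = 0.0578), BJEL replicate 1 (-1.44, q = 0.0526) and BJEL replicate 2 (-1.15, q = 0.0726). NNT, the mitochondrial transhydrogenase, fell by 1.16 ± 0.28 on the BJELM-labelled arrays (q = 0.0238), a call that did not hold without BJ replicate 1 (-1.06, q = 0.121), BJ replicate 2 (-1.27, q = 0.0665) and BJELM replicate 2 (-0.73, q = 0.0304).

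Among the 22 quinone, carbonyl and conjugate genes 1 was called lower in BJEL, and 1 higher and 1 lower on the BJELM-labelled arrays. The 12 oxidant producers held 1 call in each direction in BJEL, the 14 metallothioneins and other scavengers 1 lower on the BJELM-labelled arrays, and 3 further glutathione peroxidases 0. ABCC3, an exporter of conjugates, fell in BJEL (-2.30 ± 0.12, q = 0.000412) and on the BJELM-labelled arrays (-2.37 ± 0.12, q = 0.000169), while ABCC5 rose there by 1.13 ± 0.10 against BJ (q = 0.000892) and by 1.08 ± 0.10 against BJEL (q = 0.00424, below 2-fold at 0.97 without BJELM replicate 1). NOX4, an oxidase that makes hydrogen peroxide, fell by 1.08 ± 0.12 in BJEL (q = 0.00281), and AOX1, aldehyde oxidase, rose by 1.04 ± 0.09 (q = 0.0015). Without BJ replicate 1 both were below 2-fold (-0.94 and 0.99), as AOX1 was without BJEL replicate 1 (0.98). MT1F, a metallothionein whose close copies may share its signal, fell on the BJELM-labelled arrays against BJ (-1.90 ± 0.17, q = 0.000804) and against BJEL (-1.02 ± 0.17, q = 0.0182). The call against BJEL was lost without BJEL replicate 1 (-1.11, q = 0.0744), BJEL replicate 2 (-0.92, q = 0.0916) and BJELM replicate 1 (-0.81, q = 0.0451), and with quantile normalization again by its size.

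**Figure D4:**
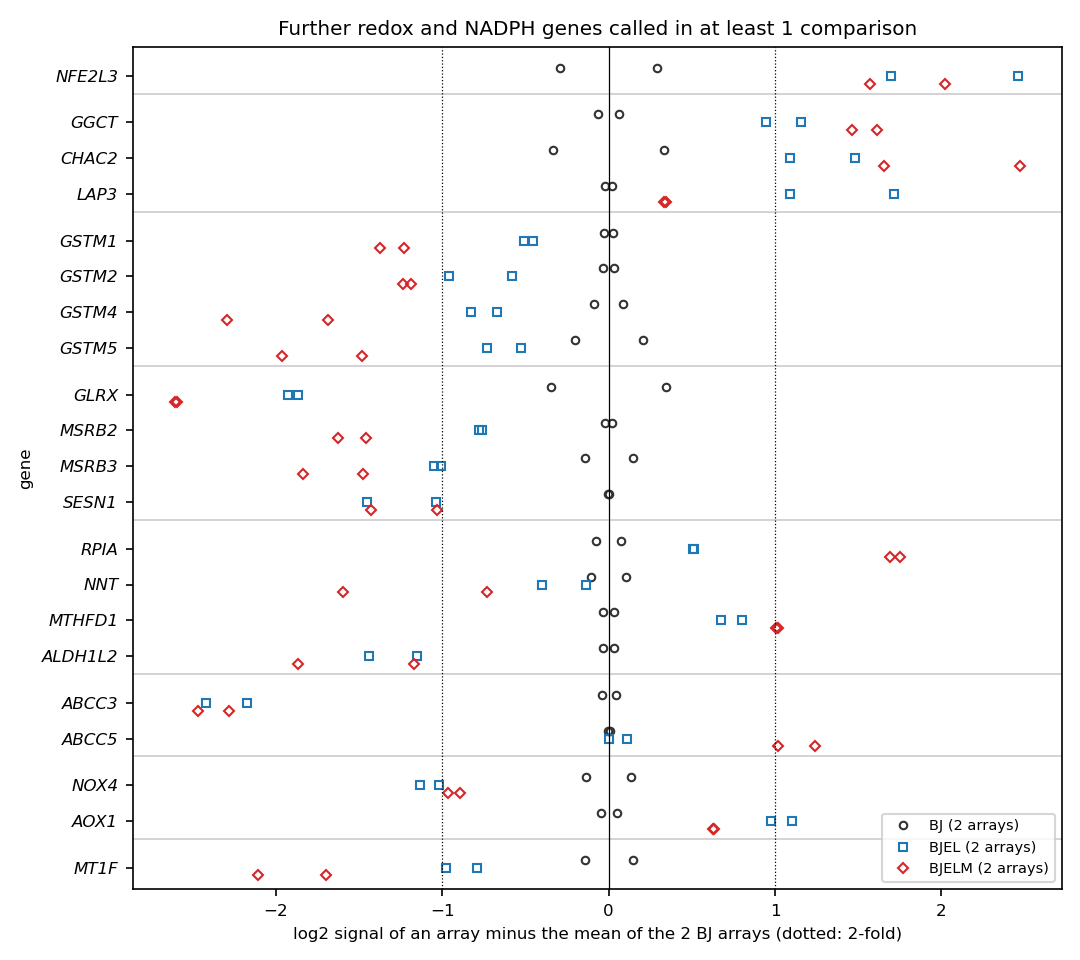
The 21 genes of the further lists that were called in at least 1 comparison, each array as a point at its log2 signal minus the BJ mean, with grey lines between lists. NFE2L3, GGCT and CHAC2 stand to the right in both derived lines, GLRX and ABCC3 to the left in both, and RPIA and ABCC5 stand to the right on the BJELM-labelled arrays, by 1.72 and 1.13.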

How the data were processed

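The deposited table held log2 signals that the authors made from the scans of all 6 arrays with RMA (background correction, quantile normalization and probe set summary) under the default settings of Affymetrix Expression Console 1.3.1. RMA makes the arrays' distributions alike, so a change shared by most genes cannot be seen. Of 33297 probe sets, 19460 carried 1 gene symbol, 1754 several (not used) and 12083 were unnamed here; a gene was its single-symbol probe set with the highest mean. Array medians ran from 6.37 to 6.46, and correlations over genes from 0.992 to 0.995 within a line.

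A mean per cell line was fitted over all 6 arrays with limma 3.58.1 (R 4.3.3, 3 residual and 3.13 prior degrees of freedom), with two-sided moderated tests and Benjamini-Hochberg adjustment over 18417 genes; errors of differences are standard errors. The fit was tested on simulated data. A plain t-test with unequal variances was an alternative, next to other normalizations, filters, probe sets, priors and fits without 1 array. The study's methods name a modified t-test, which was not run. Counts without a fold minimum were added after seeing the data. Members and lists were chosen with earlier results of these data known. Every member could be named; of each further list, up to 4 called genes with the largest change were named. Markers of epithelial, leukocyte and melanocyte cells averaged between 5.41 and 7.29 on an array, and 9 control genes between 10.88 and 11.23. Single markers stood above these averages, with line means of 10.95 to 11.92 for KRT18, 10.28 to 11.36 for CD68 and 8.00 to 9.68 for MITF. Of 8, 7 and 5 measured markers, 1 of each list was called lower on the BJELM-labelled arrays against BJ, where 4.7% of all genes were. Of the 9 control genes, 3 passed the adjusted p in each comparison with BJ, all higher. On the BJELM-labelled arrays 1 was called higher against BJ (largest difference 1.11) and 1 lower against BJEL (lowest difference -1.03). Labels and methods differ on the amounts of glucose, hygromycin and puromycin in the medium. No protein comparison was run.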

Additional observations from a re-analysis of the deposited data

Results flagged for a closer look

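The difference from BJ was not the same in the derived lines for GCLC and SOD2, by the direct test between the lines with a gap of at least 2-fold. Without that minimum 5 members passed higher and 3 lower in this test. Among them were SRXN1 (0.82, adjusted p = 0.00425) and GPX8 (-0.68, adjusted p = 0.00797). GCLC differed from BJ by 1.39 on the BJELM-labelled arrays and by 0.05 in BJEL, a gap of 1.34 ± 0.12 (adjusted p = 0.00371), with both BJELM-labelled arrays above both BJEL arrays. SOD2 differed from BJ by 1.21 and by 0.13, a gap of 1.08 ± 0.12 (adjusted p = 0.00556), with the same separation of arrays. The gap of GCLC ranged from 1.18 to 1.49 and that of SOD2 from 0.93 to 1.22 when 1 array was left out. Puromycin, 4-hydroxytamoxifen and the MYC-ER retrovirus cannot be told apart in this gap. Lines of 2 arrays are too small to look for a single array that stands apart.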

How the results depend on the processing

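With 2 arrays a line, leaving out 1 array also took away degrees of freedom, so a lost pass need not rest on that array. Without a fold minimum 3228, 5195 and 1992 of all genes passed from BJ to BJEL, from BJ to BJELM and from BJEL to BJELM, with 4, 15 and 8 members and 25, 49 and 20 further genes. A plain t-test with unequal variances, not the modified test of the study's methods, called 465, 880 and 231 of all genes (unadjusted p). It called 0, 1 and 0 members and 4, 11 and 2 further genes. After Benjamini-Hochberg adjustment all of these counts were 0. With 2 arrays a line that test had few degrees of freedom. Leaving out 1 array gave 0 to 1, 3 to 5 and, in each fit, 2 members called, 1 to 4, 6 to 15 and 3 to 6 past the adjusted p at any fold, and 6 to 11 (BJEL against BJ) and 2 to 7 (BJELM against BJEL) further genes called. An adjusted p under 0.01 left 2 further genes between BJEL and BJELM, and fitting only these lines left 4 members at any fold. The difference of KEAP1 in BJEL turned to -0.0855 with quantile normalization again and ran from -0.12 to 0.12 without 1 array, that of NQO1 from -0.28 to 0.0892 and that of GPX7 from -0.45 to 0.10. The median of the members between BJEL and BJELM, -0.10, turned to 0.07 without BJELM replicate 2. The core without its last base was in 8 of 27 promoters (29.6%), against 39% of all and 37.7% of those of measured genes.

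The labels do not say that a replicate number marks a shared day or batch. Deviations from the line means correlated between arrays of the same number by 0.448, 0.481 and 0.553. With the replicate number as a block, members past the adjusted p at any fold rose from 4 to 10 (BJEL against BJ), from 15 to 20 (BJELM against BJ) and from 8 to 16 (BJELM against BJEL), and the only member call at 2-fold that it changed was GPX7 between BJEL and BJELM, which it added (q = 0.000778). With the block NFE2L2 passed between BJEL and BJELM (-0.32, q = 0.0245), KEAP1 between BJ and BJELM (0.26, q = 0.0378) and GPX4 between BJ and BJELM (-0.64, q = 0.00316). GCLM also passed between BJEL and BJELM (-0.41, q = 0.0309), as did TXNRD1 (-0.47, q = 0.0264). Between BJ and BJEL TXNRD1 (-0.46, q = 0.0223) and AKR1C1 (-0.44, q = 0.0432) were among those added. Between BJ and BJELM they included PRDX3 (0.38, q = 0.0128), TALDO1 (-0.41, q = 0.0074) and IDH1 (-0.42, q = 0.0151). Other settings moved no count of members by over 1.5 times.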
